A study of Mus musculus with 18 samples.

Results

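The genes described are 36 interferon-stimulated genes, chosen as a list of named genes and measured across 18 arrays of mouse cardiac cells and of cells reprogrammed towards cardiomyocytes. Each gene was read from 1 probe set, the one with the highest mean over the 18 arrays among the probe sets that name that gene alone. All 36 listed genes had such a probe set, out of 19912 genes measured in this way. The arrays were Affymetrix mouse Gene 1.0 ST arrays, which hybridise labelled RNA to probes along each transcript, and all cells came from CD1 mice. The 6 groups had 3 arrays each. They were GFP+ induced cardiomyocyte-like cells (iCMs) at 4 weeks and at 2 weeks, GFP- cells in which reprogramming had failed at 4 weeks and at 2 weeks, neonatal cardiomyocytes (CM) and neonatal cardiac fibroblasts (CF). The labels name neither the reprogramming factors nor the promoter that drives GFP. The 3 arrays of a group are given as biological replicates, but the labels do not tie them to animals or cultures, so p-values reflect only how far these arrays spread.

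Type I interferons bind the receptor chains Ifnar1 and Ifnar2 and activate the kinases Jak1 and Tyk2, which phosphorylate Stat2. Stat2 and Irf9 are parts of ISGF3, a complex that binds interferon-stimulated response elements in the promoters of the induced genes, while interferon gamma acts through gamma-activated sites. The products sense foreign RNA and DNA, block steps of viral replication, modify proteins with ubiquitin, ISG15 or ADP-ribose, and supply peptides for antigen presentation. Macrophages and fibroblasts are both known to express many of these genes without infection. Isg15 itself was not analysed here.

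Promoter windows show motifs that some of the members hold. No motif search chose the members, but they were listed as interferon-stimulated genes. Interferons act through elements of these kinds, so the motif shares are not independent of the choice of list. RefSeq windows (build GRCm38.p6) of 300 bases, 250 before and 50 after each start, were found for 27 of the 36 genes. The interferon-stimulated response element was searched on both strands as GAAA, any 2 bases and GAAA again. This GAAA pair was present in a window of 10 of the 27 genes (37.0%), namely Stat2, Ifih1, Eif2ak2, Ifit1, Ifit3, Oas1a, Oas3, Rsad2, Bst2 and Trim21, against 3.99% of the 27025 genes with a window. The letters TTCNNNGAA, a form of the gamma-activated site, were present in 8 of the 27 genes (29.6%), namely Irf1, Eif2ak2, Ifit2, Oas1a, Bst2, Isg20, Psmb8 and Ifi35, against 9.55% of all genes with a window. A match is a description of these letters and not a measured binding site. The windows printed here are those of Ifit3, whose change with time differed between iCMs and GFP- cells, of Eif2ak2 and Oas1a, which were called in opposite directions in iCMs at 2 weeks against CF, and of Tap1, which overlaps the window of Psmb9 and was not called lower with it in iCMs against CF. Each is printed 5′ to 3′ along the gene's strand, and capitals mark the matches to either motif on either strand.
Ifit3, chr19:34583279-34583578, plus strand: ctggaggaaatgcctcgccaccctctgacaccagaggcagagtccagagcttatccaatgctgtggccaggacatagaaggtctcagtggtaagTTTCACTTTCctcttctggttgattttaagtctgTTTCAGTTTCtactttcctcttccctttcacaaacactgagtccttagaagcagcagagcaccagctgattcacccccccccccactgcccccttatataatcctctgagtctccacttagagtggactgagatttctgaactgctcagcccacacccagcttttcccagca
Eif2ak2, chr17:78882523-78882822, minus strand: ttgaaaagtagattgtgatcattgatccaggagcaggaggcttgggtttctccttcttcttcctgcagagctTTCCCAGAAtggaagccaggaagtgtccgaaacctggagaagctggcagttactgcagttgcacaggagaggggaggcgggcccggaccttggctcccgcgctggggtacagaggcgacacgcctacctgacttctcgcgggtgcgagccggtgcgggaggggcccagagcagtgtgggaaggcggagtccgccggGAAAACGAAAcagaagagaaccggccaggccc
Oas1a, chr5:120907476-120907775, minus strand: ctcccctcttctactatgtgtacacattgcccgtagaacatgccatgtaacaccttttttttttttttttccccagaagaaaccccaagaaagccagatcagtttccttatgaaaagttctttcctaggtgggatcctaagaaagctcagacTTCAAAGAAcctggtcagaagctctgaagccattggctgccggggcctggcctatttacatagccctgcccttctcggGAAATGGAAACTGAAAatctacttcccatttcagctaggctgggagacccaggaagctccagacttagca
Tap1, chr17:34187306-34187605, plus strand: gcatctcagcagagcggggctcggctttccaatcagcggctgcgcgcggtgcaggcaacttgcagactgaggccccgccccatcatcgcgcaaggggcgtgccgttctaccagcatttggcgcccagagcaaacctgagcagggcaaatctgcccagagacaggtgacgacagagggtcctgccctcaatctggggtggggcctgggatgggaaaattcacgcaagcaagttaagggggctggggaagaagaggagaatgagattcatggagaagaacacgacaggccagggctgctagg
In Ifit3 both capital runs match the GAAA pair on the opposite strand, and they begin at bases 95 and 129 of the window. Eif2ak2 has a TTCNNNGAA match at base 73 and a GAAA-pair match at base 269, which lies past the start. In Oas1a the GAAA-pair matches at bases 231 and 237 overlap, and a TTCNNNGAA match begins at base 153. The Tap1 window holds neither motif, and 275 of its bases are also in the window of Psmb9, which reads the other strand (chr17:34187281-34187580). Some members lie on the same chromosome, with 6 on chromosome 16 (Mx1, Mx2, Parp9, Parp14, Dtx3l and Rtp4), 4 on chromosome 5 (Oas1a, Oas2, Oas3 and Oasl2) and the 3 Ifit genes on chromosome 19.

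The mean log2 value over the 36 genes was highest in GFP- cells and lowest in CM, with iCMs between CM and CF. On the 3 arrays it was 7.96, 8.0 and 8.25 in iCMs at 4 weeks and 8.23, 8.15 and 8.27 in iCMs at 2 weeks. It was 8.91, 8.89 and 9.32 in GFP- cells at 4 weeks and 8.92, 8.86 and 8.82 in GFP- cells at 2 weeks, against 7.31, 7.31 and 7.31 in CM and 8.54, 8.54 and 8.54 in CF. Each GFP- array was above each CF array, and each iCM array lay below CF and above CM. The arrays of 4 and 2 weeks overlapped within iCMs and within GFP- cells. The same mean over all genes was between 7.62 and 7.69 on the 18 arrays.

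Markers of macrophages and leukocytes moved in the same order of cell types, and other marker lists also moved between the groups. The part of these lists in the results that follow was not tested. The mean over 27 macrophage and leukocyte markers was 9.07 to 9.18 in iCMs at 4 weeks, 9.38 to 9.70 in iCMs at 2 weeks, 11.59 to 11.67 in GFP- cells at 4 weeks, 11.62 to 11.66 in GFP- cells at 2 weeks, 6.65 to 6.80 in CM and 11.28 to 11.52 in CF. The mean over 22 fibroblast and matrix markers was 8.68 to 8.73 and 9.18 to 9.39 in iCMs at 4 and 2 weeks, 8.96 to 9.37 in GFP- cells over both weeks, 9.17 to 9.43 in CM and 10.40 to 10.74 in CF. The mean over 17 endothelial markers was 7.39 to 7.50 and 7.36 to 7.45 in iCMs at 4 and 2 weeks, 8.03 to 8.30 and 7.69 to 7.78 in GFP- cells at 4 and 2 weeks, 8.29 to 8.32 in CM and 7.13 to 7.19 in CF. Adgre1, the F4/80 antigen of macrophages, averaged 5.60 ± 0.26 in CM (SD, n = 3), under the background limit of 6.16 log2, the smallest 25th percentile among the arrays. The mean over 11 lymphocyte markers was between 5.64 and 5.97 on the 18 arrays. The mean over 18 cardiomyocyte markers was 10.82 to 10.92 in iCMs at 4 weeks, 10.36 to 10.60 in iCMs at 2 weeks, 7.89 to 8.03 and 7.93 to 8.27 in GFP- cells at 4 and 2 weeks, 12.59 to 12.67 in CM and 7.33 to 7.41 in CF. In such bulk samples, fewer cells of a type and less RNA per cell cannot be told apart.

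**Figure D1:**
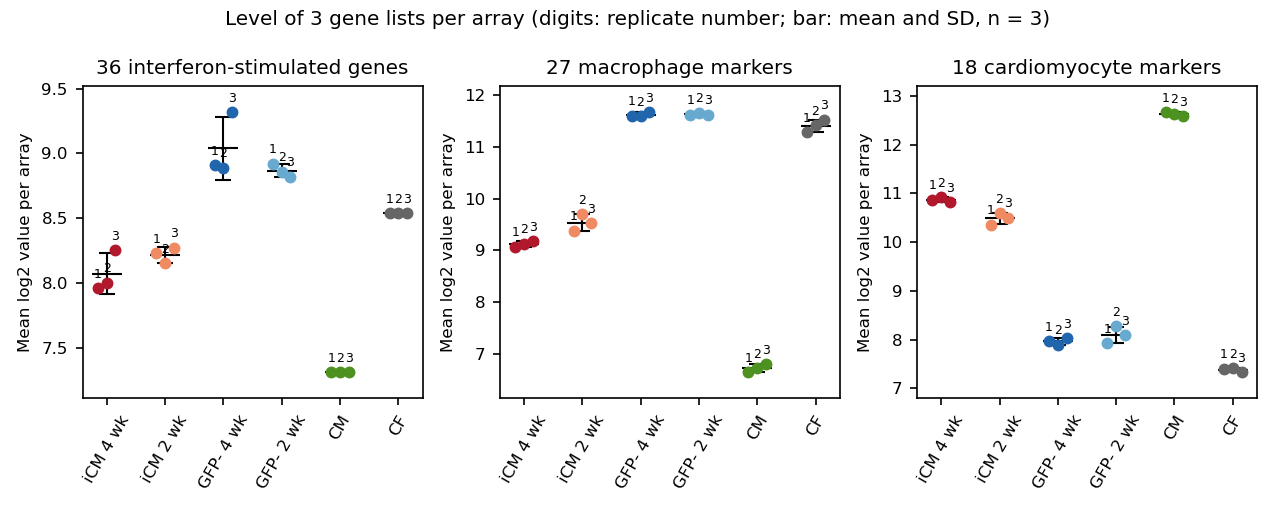
Mean log2 value per array over the 36 interferon-stimulated genes, 27 macrophage and leukocyte markers and 18 cardiomyocyte markers, in 6 groups of 3 arrays; digits give the replicate number and bars the mean and SD. The 36 genes average 8.07 and 8.22 in iCMs at 4 and 2 weeks, 9.04 and 8.87 in GFP- cells at 4 and 2 weeks, 7.31 in CM and 8.54 in CF.

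Single replicates held most of the highest values in the sorted populations. At 4 weeks replicate 3 had the highest value of its group for 28 of the 36 genes (77.8%) in iCMs and for 31 of 36 (86.1%) in GFP- cells, against 27.1% and 30.0% of all genes. At 2 weeks replicate 3 was highest for 22 of 36 (61.1%) in iCMs, against 24.5% of all genes, and replicate 1 for 20 of 36 (55.6%) in GFP- cells, against 29.5%. The median SD of the members was 0.20 in iCMs at 4 weeks and 0.30 in GFP- cells at 4 weeks, and over all genes it was 0.11 and 0.10. The macrophage marker mean was 9.07, 9.13 and 9.18 on iCM replicates 1 to 3 at 4 weeks and 11.60, 11.59 and 11.67 on GFP- replicates 1 to 3 at 4 weeks. Of those markers Adgre1 measured 9.13, 9.23 and 10.04 in iCMs at 4 weeks and 12.29, 12.30 and 12.91 in GFP- cells at 4 weeks, highest in replicate 3 of both. Adgre1 is 1 of 27 markers, and it spread more between these replicates than the list mean did. Calls were therefore also counted without replicate 3 of both 4-week groups.

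**Figure D2:**
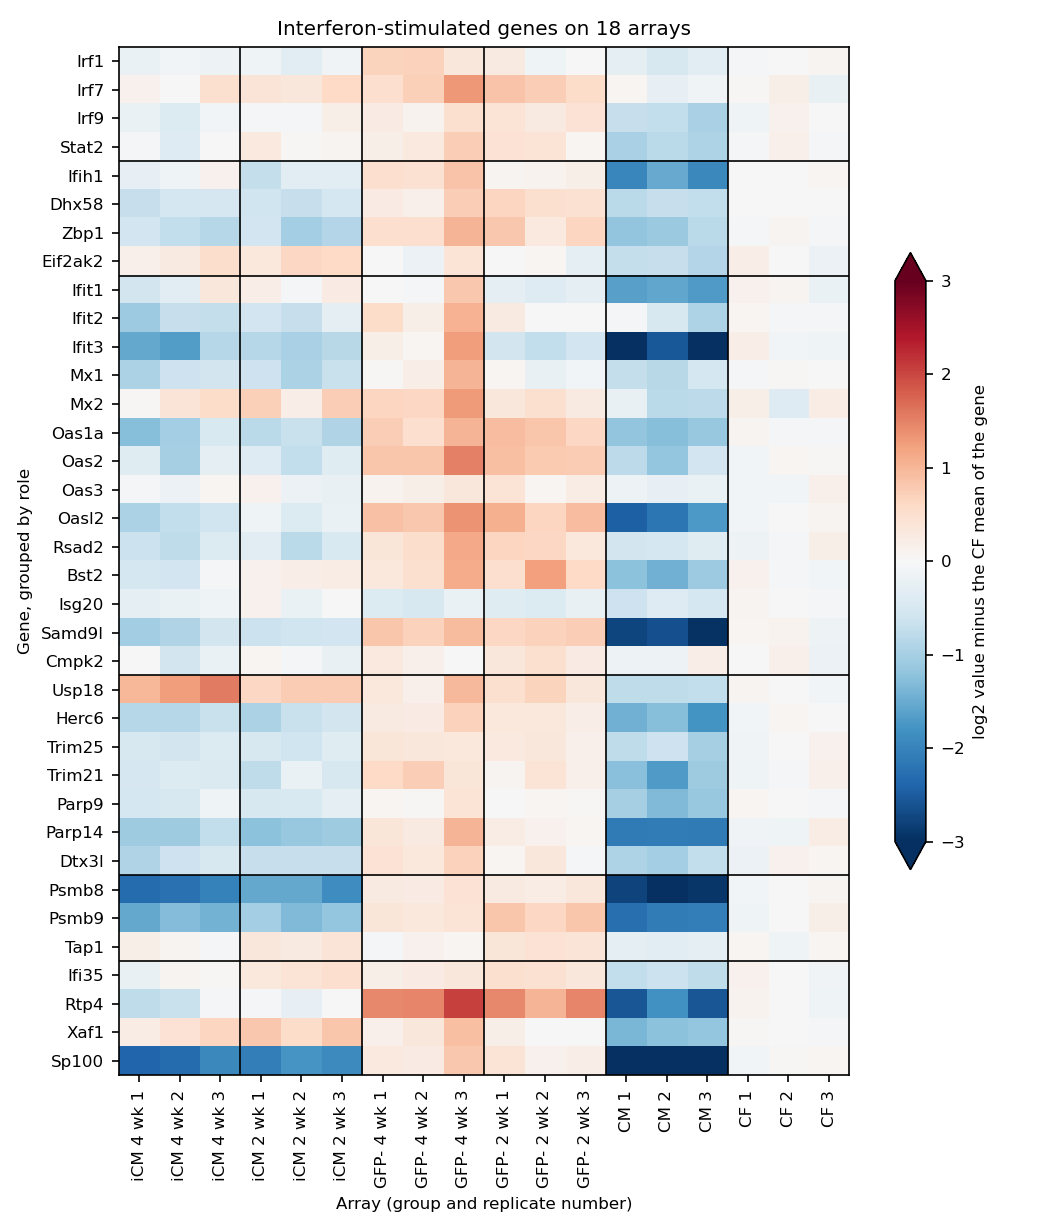
Log2 value minus the CF mean of each gene for the 36 genes (rows, grouped by role) on the 18 arrays (columns). CM has the lowest mean in 32 rows, and GFP- replicate 3 at 4 weeks is the highest of its group for 31 of the 36 genes. The iCM means are below CF in most rows. They are above CF for 6 genes at 4 weeks (Irf7, Eif2ak2, Mx2, Usp18, Tap1 and Xaf1) and for 11 genes at 2 weeks, these 6 included.

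In iCMs set against CF, most members that passed the test were lower. At 4 weeks 2 members were higher and 19 lower, where 14.3% of all genes rose and 15.2% fell (limma, Benjamini-Hochberg adjusted p under 0.05 over all genes). At 2 weeks 7 were higher and 18 lower, where 17.4% of all genes rose and 15.8% fell. The median difference over the 36 genes was -0.46 log2 at 4 weeks and -0.44 at 2 weeks, and over all genes it was 0.02 and 0.03. The 17 members that were lower at both weeks were the sensors Dhx58 and Zbp1, the effectors Ifit3, Mx1, Oas1a, Oas2, Rsad2 and Samd9l, the protein-modifying genes Herc6, Trim25, Trim21, Parp9, Parp14 and Dtx3l, the immunoproteasome genes Psmb8 and Psmb9, and Sp100. Usp18 and Xaf1 were higher at both weeks, and Irf7, Eif2ak2, Mx2, Tap1 and Ifi35 were higher at 2 weeks. Ifit2 and Oasl2 were called lower at 4 weeks alone and Ifih1 at 2 weeks alone. Among the macrophage markers 26 of 27 were lower and 0 higher at each week. Fibroblast markers were lower for 19 of 22 at 4 weeks and 17 at 2 weeks, and endothelial markers were higher for 3 of 17 and lower for 1 at each week.

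The largest differences from CF were in Sp100, a protein of nuclear bodies, and Psmb8, an inducible catalytic subunit of the immunoproteasome. Sp100 measured 8.09, 8.16 and 8.52 log2 in iCMs at 4 weeks and 8.38, 8.68 and 8.55 in iCMs at 2 weeks, against 10.38, 10.49 and 10.53 in CF. No iCM array came within 1 log2 unit of a CF array. The difference was -2.21 ± 0.14 log2 (SE) at 4 weeks, a 4.62-fold lower value (adjusted p = 1.39e-10), and -1.92 ± 0.14 at 2 weeks (adjusted p = 1.39e-09). Psmb8 measured 7.94, 8.0 and 8.21 in iCMs at 4 weeks and 8.70, 8.70 and 8.38 in iCMs at 2 weeks, against 10.15, 10.26 and 10.32 in CF. Each iCM array was lower than each CF array. The difference in Psmb8 was -2.19 ± 0.12 at 4 weeks, a 4.57-fold lower value (adjusted p = 1.9e-11), and -1.65 ± 0.12 at 2 weeks (adjusted p = 1.68e-09).

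Psmb9, another inducible subunit of the immunoproteasome, measured 8.80, 9.04 and 8.93 in iCMs at 4 weeks and 9.32, 9.02 and 9.18 in iCMs at 2 weeks, against 10.20, 10.32 and 10.51 in CF. The iCM arrays lay below the CF arrays, with differences of -1.42 ± 0.10 at 4 weeks and -1.17 ± 0.10 at 2 weeks. Tap1, which carries peptides into the endoplasmic reticulum, measured 7.54, 7.45 and 7.29 in iCMs at 4 weeks and 7.69, 7.63 and 7.75 in iCMs at 2 weeks, against 7.41, 7.23 and 7.43 in CF. The 4-week arrays overlapped the CF arrays, and the 2-week arrays were above them. The difference in Tap1 was 0.07 ± 0.09 at 4 weeks (adjusted p = 0.61) and 0.33 ± 0.09 at 2 weeks (adjusted p = 0.00424).

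Among the 14 effectors, Ifit3 had the largest difference from CF at both weeks, -1.35 ± 0.25 at 4 weeks (adjusted p = 0.000213) and -0.89 ± 0.25 at 2 weeks (adjusted p = 0.00847). Ifit1 of the same family was at -0.18 ± 0.20 and 0.13 ± 0.20 and did not pass (adjusted p = 0.577 and 0.678). Oas1a, which makes the oligoadenylates that activate RNase L, measured 7.19, 7.46 and 8.01 in iCMs at 4 weeks and 7.66, 7.80 and 7.57 in iCMs at 2 weeks, against 8.55, 8.44 and 8.41 in CF. The iCM arrays were below the CF arrays, and the highest of them was replicate 3 at 4 weeks. Oas1a differed by -0.92 ± 0.16 at 4 weeks and -0.79 ± 0.16 at 2 weeks. Samd9l, an antiviral and growth-restricting protein, differed by -0.83 ± 0.12 and -0.60 ± 0.12. Mx1, a dynamin-like GTPase that blocks influenza virus in mice, differed by -0.71 ± 0.18 and -0.75 ± 0.18. Rsad2, the antiviral protein viperin, differed by -0.60 ± 0.17 and -0.53 ± 0.17.

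Of the 7 genes of ubiquitin, ISG15 and ADP-ribose modification, 6 were lower than in CF and 1 was higher at each week. Parp14, a mono-ADP-ribosyltransferase, measured 8.08, 8.08 and 8.41 in iCMs at 4 weeks and 7.92, 8.02 and 8.09 in iCMs at 2 weeks, against 9.05, 9.03 and 9.37 in CF. The groups did not overlap, and Parp14 differed by -0.95 ± 0.15 and -1.13 ± 0.15 at 4 and 2 weeks. Herc6, the main ISG15 ligase of the mouse, differed by -0.79 ± 0.13 and -0.72 ± 0.13. Dtx3l and Parp9, which form a complex of a ubiquitin ligase and an ADP-ribosyltransferase, differed by -0.67 ± 0.13 and -0.38 ± 0.12 at 4 weeks. Trim25, a ubiquitin ligase of the RIG-I pathway, differed by -0.48 ± 0.10, and Trim21, a ubiquitin ligase that binds antibodies in the cytosol, by -0.44 ± 0.15 at 4 weeks.

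Usp18 was the member of that class that rose. It encodes the protease that removes ISG15 from proteins and also restrains signalling at the type I receptor. Usp18 measured 9.04, 9.31 and 9.61 in iCMs at 4 weeks and 8.68, 8.80 and 8.80 in iCMs at 2 weeks, against 8.13, 8.06 and 7.96 in CF. Each iCM array was above each CF array, and the 4-week arrays were above the 2-week arrays. The difference was 1.27 ± 0.16 at 4 weeks, a 2.41-fold higher value (adjusted p = 2.72e-06), and 0.71 ± 0.16 at 2 weeks (adjusted p = 0.00163). Xaf1, known as an antagonist of the apoptosis inhibitor XIAP, measured 8.78, 8.98 and 9.20 in iCMs at 4 weeks and 9.35, 9.10 and 9.38 in iCMs at 2 weeks, against 8.59, 8.55 and 8.51 in CF. No iCM array fell within the CF range, and Xaf1 differed by 0.44 ± 0.14 at 4 weeks (adjusted p = 0.0261) and 0.73 ± 0.14 at 2 weeks (adjusted p = 0.000485).

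Eif2ak2, the RNA-activated kinase PKR that stops translation, measured 9.51, 9.64 and 9.88 in iCMs at 4 weeks and 9.68, 9.99 and 9.95 in iCMs at 2 weeks, against 9.55, 9.34 and 9.19 in CF. The 2-week arrays were above the CF arrays, and the lowest 4-week array fell within the CF range. The difference of 0.51 ± 0.14 at 2 weeks passed (adjusted p = 0.00831) and that of 0.32 ± 0.14 at 4 weeks did not (adjusted p = 0.11). Mx2 also passed at 2 weeks (0.55 ± 0.20, adjusted p = 0.0439), although its iCM and CF arrays overlapped. Of the 4 transcription factors, Irf1, Irf9 and Stat2 passed at neither week. Irf7, which drives interferon alpha genes, was at 0.21 ± 0.17 at 4 weeks (adjusted p = 0.415) and 0.44 ± 0.17 at 2 weeks (adjusted p = 0.047). The other members that passed at neither week were Ifit1, Oas3, Bst2, Isg20, Cmpk2 and Rtp4.

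When each array was left out in turn, 1 of 2 higher and 15 of 19 lower calls against CF at 4 weeks held throughout, as did 4 of 7 higher and 14 of 18 lower at 2 weeks. At 4 weeks the calls lost, with their highest adjusted p, were Xaf1 without 4-week iCM replicate 2 or 3 or CF replicate 2 or 3 (0.144), Oas2 without 4-week iCM replicate 2 or CF replicate 1 or 2 or 3 (0.221), Parp9 without 4-week iCM replicate 1 or 2 or CF replicate 1 (0.0953), Rsad2 without CF replicate 3 (0.0524) and Trim21 without 4-week iCM replicate 1 or 2 or 3 or CF replicate 2 or 3 (0.153). At 2 weeks they were Eif2ak2 without CF replicate 3 (0.0524), Irf7 without 2-week iCM replicate 1 or 2 or 3 or CF replicate 1 or 3 (0.203), Mx2 without 2-week iCM replicate 1 or 3 or CF replicate 2 (0.243), Ifih1 without 2-week iCM replicate 1 (0.0756), Oas2 without 2-week iCM replicate 1 or 2 or 3 or CF replicate 1 or 2 or 3 (0.189), Rsad2 without 2-week iCM replicate 2 or CF replicate 3 (0.112) and Trim21 without 2-week iCM replicate 1 or CF replicate 3 (0.111). Without replicate 3 of both 4-week groups, 2 of 2 higher and 18 of 19 lower calls at 4 weeks were kept.

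**Figure D3:**
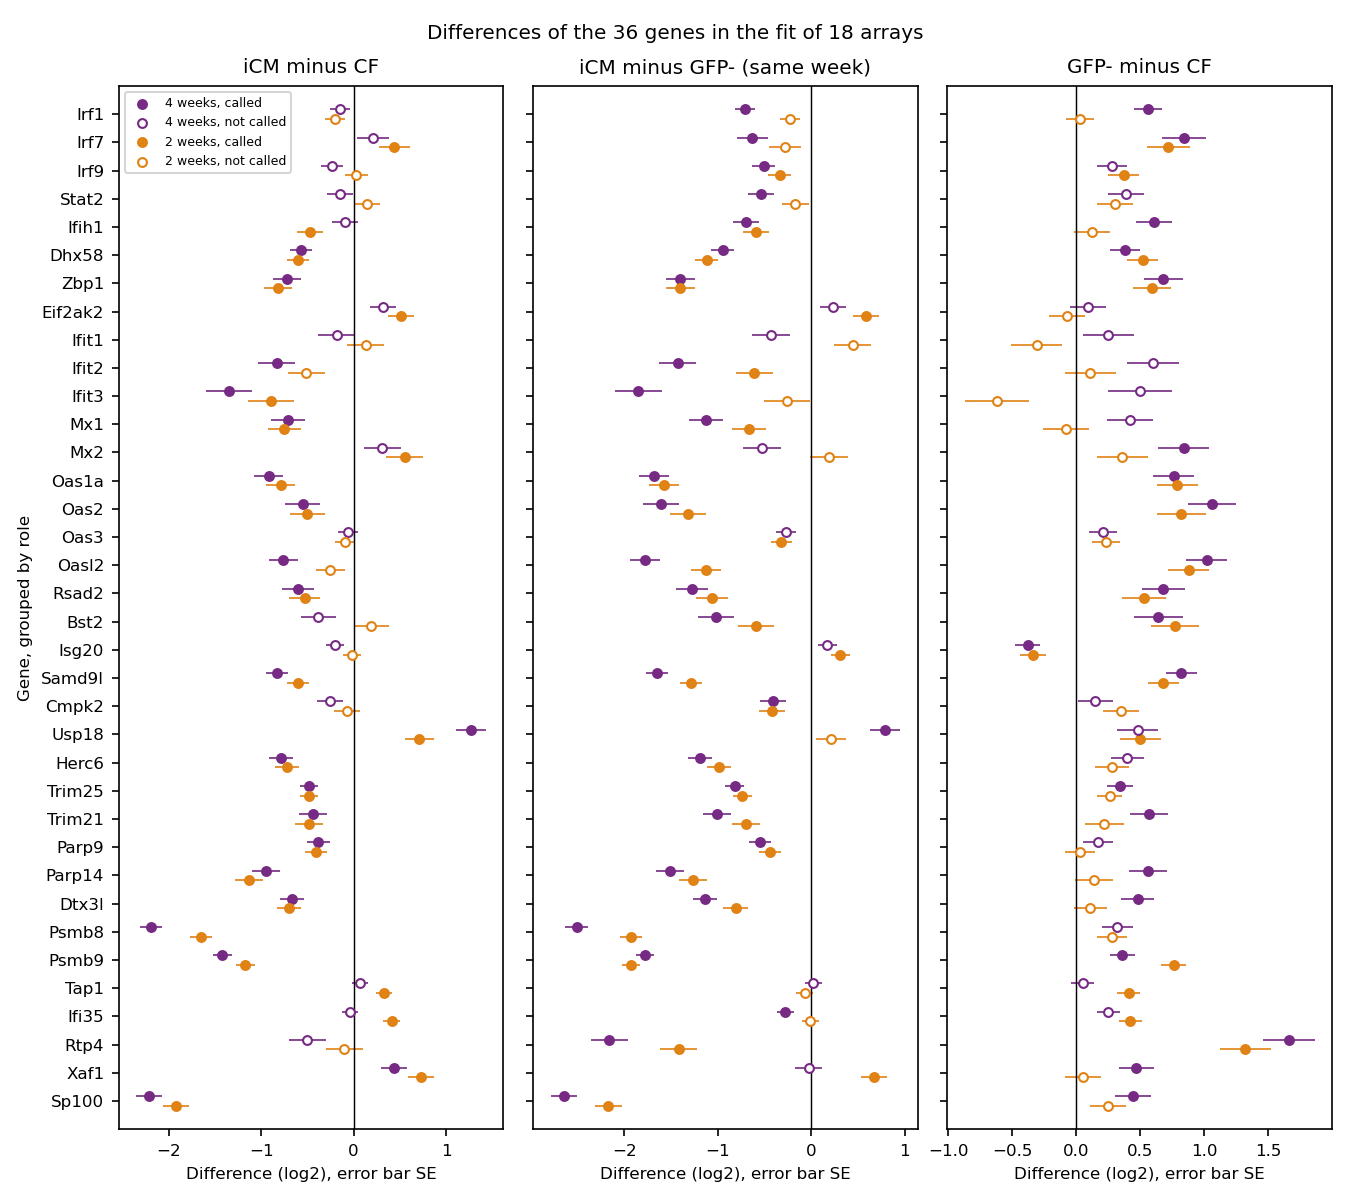
Difference in log2 value with its SE for the 36 genes (rows, grouped by role) in iCMs minus CF, iCMs minus GFP- cells of the same week and GFP- cells minus CF, at 4 weeks (purple) and 2 weeks (orange); filled points passed the test. Sp100 and Psmb8 have the largest negative differences of iCMs (-2.21 and -2.19 against CF at 4 weeks), and Rtp4 has the largest positive difference of GFP- cells (1.66 at 4 weeks).

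Set against the GFP- cells of the same week, iCMs were lower for most members. At 4 weeks 1 member was higher and 28 lower, where 17.2% of all genes rose and 17.1% fell. At 2 weeks 3 were higher and 24 lower, where 16.2% of all genes rose and 18.4% fell. The median difference over the 36 genes was -0.98 log2 at 4 weeks and -0.60 at 2 weeks, and over all genes it was 0.05 and -0.02. The 23 members lower at both weeks were Irf9, 3 of the 4 sensors, 9 of the 14 effectors, 6 of the 7 protein-modifying genes, Psmb8, Psmb9, Rtp4 and Sp100. All 4 transcription factors were lower at 4 weeks and 1 of them at 2 weeks. Ifit1, Mx2 and Tap1 passed at neither week. Of the 27 macrophage markers, 26 were lower at 4 weeks and 27 at 2 weeks, and 0 were higher. Endothelial markers were lower for 9 of 17 at 4 weeks and 8 at 2 weeks, and higher for 1 and 3. Fibroblast markers were lower for 10 of 22 at 4 weeks and 5 at 2 weeks, and higher for 3 and 7.

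Rtp4, a zinc-finger protein that helps receptors reach the cell surface, had the third largest difference at 4 weeks. It measured 8.63, 8.73 and 9.34 in iCMs at 4 weeks, against 10.85, 10.87 and 11.45 in GFP- cells at 4 weeks. At 2 weeks it measured 9.34, 9.16 and 9.40 in iCMs, against 10.85, 10.43 and 10.87 in GFP- cells. Replicate 3 was the highest of both groups at 4 weeks, and no iCM array reached a GFP- array. The difference in Rtp4 was -2.16 ± 0.20 at 4 weeks, a 4.46-fold lower value (adjusted p = 4.17e-08), and -1.42 ± 0.20 at 2 weeks (adjusted p = 1.05e-05). Sp100 measured 10.75, 10.71 and 11.26 in GFP- cells at 4 weeks and 10.88, 10.59 and 10.67 in GFP- cells at 2 weeks, all above the iCM arrays given earlier. Its difference was -2.65 ± 0.14 at 4 weeks, a 6.27-fold lower value (adjusted p = 8.13e-12), and -2.17 ± 0.14 at 2 weeks (adjusted p = 1.82e-10).

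Oas2, another oligoadenylate synthetase, measured 7.65, 7.03 and 7.73 in iCMs at 4 weeks, against 8.85, 8.85 and 9.54 in GFP- cells at 4 weeks. At 2 weeks Oas2 measured 7.63, 7.28 and 7.65 in iCMs, against 8.93, 8.80 and 8.78 in GFP- cells. The groups did not overlap, and the differences were -1.61 ± 0.19 at 4 weeks (adjusted p = 8.65e-07) and -1.32 ± 0.19 at 2 weeks (adjusted p = 1.03e-05). Oasl2, an oligoadenylate synthetase-like protein, differed by -1.78 ± 0.16 and -1.13 ± 0.16, and Samd9l by -1.65 ± 0.12 and -1.29 ± 0.12. Zbp1, a sensor of nucleic acids in the Z conformation, differed by -1.40 ± 0.15 and -1.40 ± 0.15. Dhx58, the RIG-I-like protein LGP2, differed by -0.95 ± 0.12 and -1.12 ± 0.12. Psmb8 differed by -2.51 ± 0.12 and -1.93 ± 0.12, and Psmb9 by -1.78 ± 0.10 and -1.93 ± 0.10, while Tap1 was at 0.02 ± 0.09 and -0.07 ± 0.09.

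Few members were higher in iCMs than in GFP- cells. Usp18 was higher at 4 weeks (0.79 ± 0.16, adjusted p = 0.000594) and did not pass at 2 weeks (0.21 ± 0.16, adjusted p = 0.369). Its GFP- arrays had 8.36, 8.21 and 9.03 log2 at 4 weeks and 8.52, 8.72 and 8.40 at 2 weeks. The 4-week groups did not overlap, and GFP- replicate 3 lay just below the lowest iCM array. At 2 weeks Xaf1 (0.67 ± 0.14, adjusted p = 0.000872), Eif2ak2 (0.58 ± 0.14, adjusted p = 0.0028) and Isg20, an RNA exonuclease (0.31 ± 0.10, adjusted p = 0.0194), were higher. At 4 weeks Xaf1 was at -0.03 ± 0.14, Eif2ak2 at 0.23 ± 0.14 and Isg20 at 0.17 ± 0.10, and none of them passed. Cmpk2, a mitochondrial nucleotide kinase, passed as lower at both weeks but averaged 5.71 ± 0.27 in iCMs and 6.13 ± 0.16 in GFP- cells at 4 weeks (SD, n = 3), both under the background limit.

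When each array was left out in turn, 1 of 1 higher and 26 of 28 lower calls against GFP- cells at 4 weeks held throughout, as did 2 of 3 higher and 19 of 24 lower at 2 weeks. At 4 weeks the calls lost, with their highest adjusted p, were Cmpk2 without 4-week iCM replicate 2 or 4-week GFP- replicate 1 or 2 (0.158) and Ifi35 without 4-week iCM replicate 1 or 4-week GFP- replicate 2 or 3 (0.166), and without GFP- replicate 3 there were 2 higher calls in place of 1. At 2 weeks those lost were Isg20 without 2-week iCM replicate 1 or 3 or 2-week GFP- replicate 1 or 2 (0.101), Bst2 without 2-week iCM replicate 1 or 2-week GFP- replicate 2 (0.165), Cmpk2 without 2-week iCM replicate 3 or 2-week GFP- replicate 2 (0.105), Ifit2 without 2-week iCM replicate 1 or 2 or 2-week GFP- replicate 1 (0.0901), Irf9 without 2-week iCM replicate 1 or 2 or 2-week GFP- replicate 1 or 3 (0.0911) and Oas3 without 2-week iCM replicate 2 or 3 or 2-week GFP- replicate 1 or 3 (0.165). Without replicate 3 of both groups, 1 of 1 higher and 27 of 28 lower calls at 4 weeks were kept.

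The GFP- cells were themselves above CF for many members. At 4 weeks 20 members were higher and 1 lower, where 5.79% of all genes rose and 5.70% fell. At 2 weeks 15 were higher and 1 lower, where 13.8% of all genes rose and 8.93% fell. The median difference over the 36 genes was 0.47 log2 at 4 weeks and 0.29 at 2 weeks, and over all genes it was -0.01 and 0.05. The 11 members higher at both weeks were Irf7, Dhx58, Zbp1, Oas1a, Oas2, Oasl2, Rsad2, Bst2, Samd9l, Psmb9 and Rtp4, and Isg20 was lower at both. Of the 27 macrophage markers, 7 were higher and 1 lower at 4 weeks, and 11 higher and 0 lower at 2 weeks. Of the 17 endothelial markers, 10 were higher and 0 lower at 4 weeks, and 10 higher and 1 lower at 2 weeks. Cdh5, the cadherin of endothelial junctions, differed by 3.65 ± 0.12 at 4 weeks and 1.97 ± 0.12 at 2 weeks. Of the 22 fibroblast and matrix markers, 1 was higher and 18 lower at each week. The part of these markers in the result was not tested. The comparisons share arrays, CF with that of iCMs and CF and GFP- with that of iCMs and GFP- cells, so their values are not independent.

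Rtp4 had the largest difference, 1.66 ± 0.20 at 4 weeks, a 3.16-fold higher value (adjusted p = 9.31e-06), and 1.32 ± 0.20 at 2 weeks (adjusted p = 8.85e-05). Its CF arrays had 9.51, 9.42 and 9.27 log2, and the 6 GFP- arrays were above them. Oas2 differed by 1.06 ± 0.19 at 4 weeks (adjusted p = 0.000621) and 0.82 ± 0.19 at 2 weeks (adjusted p = 0.0035), with CF arrays at 7.94, 8.07 and 8.05. Oasl2 differed by 1.02 ± 0.16 and 0.88 ± 0.16, and Samd9l by 0.82 ± 0.12 and 0.68 ± 0.12. Irf7 measured 7.79, 8.01 and 8.59 in GFP- cells at 4 weeks and 8.15, 8.03 and 7.84 in GFP- cells at 2 weeks, against 7.32, 7.47 and 7.07 in CF. The groups did not overlap, and the differences were 0.84 ± 0.17 (adjusted p = 0.00156) and 0.72 ± 0.17 (adjusted p = 0.00345). Bst2, the membrane protein tetherin that holds virions at the cell surface, differed by 0.64 ± 0.19 and 0.77 ± 0.19. Psmb9 differed by 0.36 ± 0.10 and 0.76 ± 0.10, while Psmb8 was at 0.32 ± 0.12 and 0.28 ± 0.12 and did not pass (adjusted p = 0.113 and 0.115).

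The 4-week count against CF rested in part on single arrays. It was 10 in place of 20 without GFP- replicate 3 or without CF replicate 1, 11 without CF replicate 2, and 10 without replicate 3 of both 4-week groups. The 9 higher calls that held without any 1 array were Ifih1, Irf1, Irf7, Oas1a, Oas2, Oasl2, Rtp4, Samd9l and Zbp1. The calls lost at 4 weeks, with their highest adjusted p, were Bst2 without 4-week GFP- replicate 3 or CF replicate 1 or 2 or 3 (0.224), Dhx58 without 4-week GFP- replicate 3 or CF replicate 1 or 2 or 3 (0.225), Dtx3l without 4-week GFP- replicate 3 or CF replicate 1 (0.114), Mx2 without 4-week GFP- replicate 3 or CF replicate 2 (0.0676), Parp14 without 4-week GFP- replicate 3 or CF replicate 1 or 2 (0.108), Psmb9 without 4-week GFP- replicate 1 or 3 or CF replicate 1 or 2 (0.146), Rsad2 without 4-week GFP- replicate 3 or CF replicate 1 (0.0668), Sp100 without 4-week GFP- replicate 3 or CF replicate 1 or 2 or 3 (0.265), Trim21 without 4-week GFP- replicate 1 or 2 or CF replicate 1 or 2 (0.0959), Trim25 without 4-week GFP- replicate 1 or 2 or 3 or CF replicate 1 or 2 (0.162), Xaf1 without 4-week GFP- replicate 3 or CF replicate 1 or 2 or 3 (0.236) and Isg20 without 4-week GFP- replicate 1 or 2 or CF replicate 1 (0.101). At 2 weeks 11 of the 15 higher calls held, and those lost, with their highest adjusted p, were Irf9 without 2-week GFP- replicate 1 or 3 or CF replicate 1 or 3 (0.128), Rsad2 without 2-week GFP- replicate 1 or 2 or CF replicate 1 or 2 (0.107), Usp18 without 2-week GFP- replicate 1 or 2 or CF replicate 1 or 2 or 3 (0.111), Zbp1 without 2-week GFP- replicate 1 (0.0577) and Isg20 without 2-week GFP- replicate 1 or 2 or CF replicate 1 (0.0896).

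**Figure D4:**
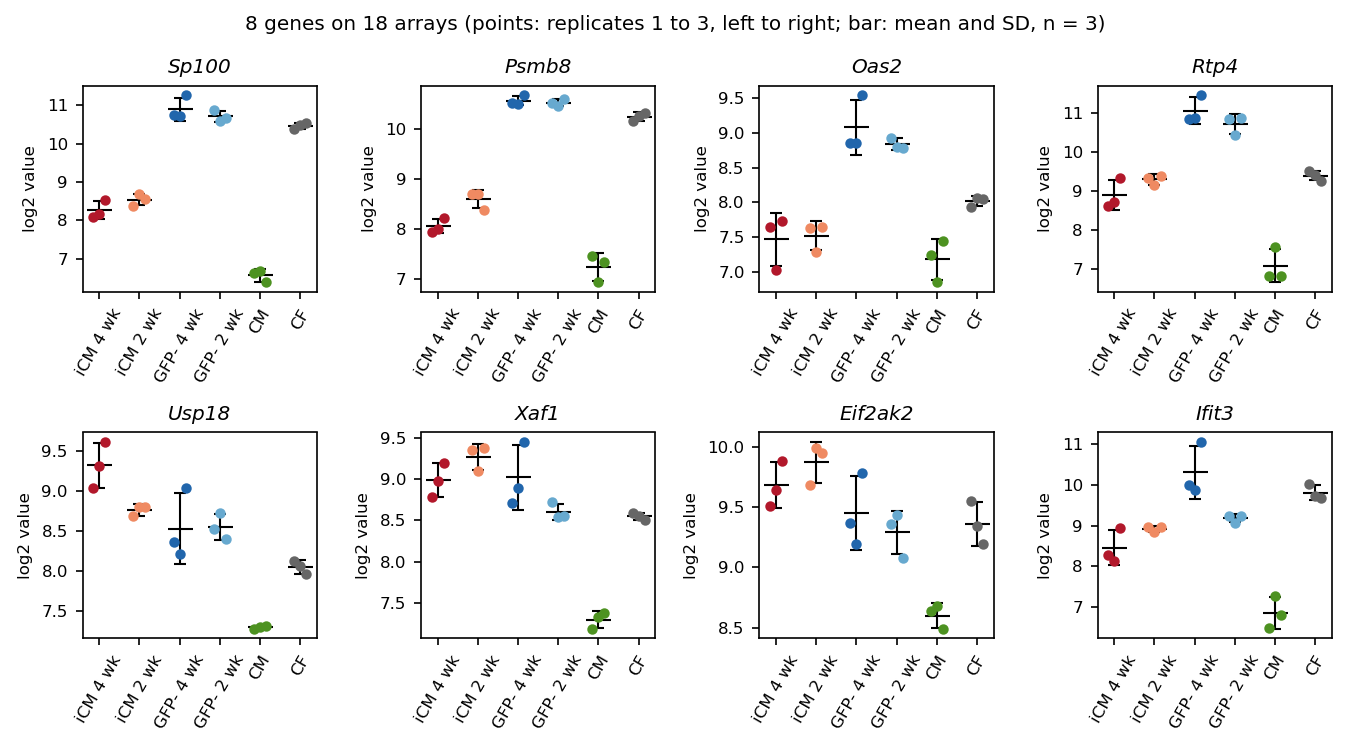
Log2 value of 8 genes on the 18 arrays, in 6 groups of 3 arrays; points are replicates and bars the mean and SD. Sp100, Psmb8, Oas2 and Rtp4 are highest in GFP- cells and lowest in CM, Usp18 is highest in iCMs at 4 weeks (9.32 ± 0.28), Xaf1 and Eif2ak2 are highest in iCMs at 2 weeks (9.27 ± 0.16 and 9.87 ± 0.17), and Ifit3 is highest in GFP- cells at 4 weeks (10.31 ± 0.66).

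Neonatal cardiomyocytes had the lowest mean of 32 members. Set against CF, 0 members were higher and 32 lower, where 19.6% of all genes rose and 21.5% fell, and 17 of the members were lower by at least 1 log2 unit. The median difference was -0.90 log2 over the 36 genes and 0.03 over all genes. Sp100 measured 6.62, 6.68 and 6.38 in CM, a difference of -3.90 ± 0.14 from CF (adjusted p = 7.86e-15). Psmb8 measured 7.46, 6.93 and 7.33 in CM, a difference of -3.0 ± 0.12, or 8.0-fold lower (adjusted p = 5.46e-14). For both genes each CM array was at least 2 log2 units below each CF array. Ifit3 differed by -2.95 ± 0.25, Samd9l by -2.79 ± 0.12, Rtp4 by -2.31 ± 0.20, Psmb9 by -2.14 ± 0.10, Parp14 by -2.11 ± 0.15 and Oasl2 by -2.10 ± 0.16. The RNA sensor Ifih1, known as MDA5, differed by -1.80 ± 0.14 and Usp18 by -0.75 ± 0.16. Irf7 (-0.09 ± 0.17), Oas3 (-0.20 ± 0.11), Ifit2 (-0.48 ± 0.20) and Cmpk2 (-0.03 ± 0.14) did not pass. The macrophage markers were lower in CM for 26 of 27, fibroblast markers were lower for 17 of 22, and endothelial markers were higher for 15 of 17. When each array was left out in turn, 30 of the 32 calls held, and those lost, with their highest adjusted p, were Mx2 without CM replicate 2 or 3 or CF replicate 1 or 3 (0.101) and Rsad2 without CM replicate 1 or 2 or CF replicate 2 or 3 (0.122).

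The iCMs were above CM for most members. At 4 weeks 24 members were higher and 0 lower, where 19.0% of all genes rose and 16.1% fell. At 2 weeks 26 were higher and 0 lower, where 22.7% of all genes rose and 19.4% fell. The median difference over the 36 genes was 0.72 at 4 weeks and 0.84 at 2 weeks, and over all genes it was -0.01 and -0.01. The 24 members called at 4 weeks were also called at 2 weeks, when Irf7 and Oas1a were called too. Usp18 differed by 2.02 ± 0.16 at 4 weeks, a 4.06-fold higher value, and by 1.46 ± 0.16 at 2 weeks, with CM arrays at 7.28, 7.3 and 7.32. Rtp4 differed by 1.81 ± 0.20 and by 2.21 ± 0.20, and its CM arrays were at 6.84, 7.58 and 6.84. Samd9l differed by 1.96 ± 0.12 and 2.19 ± 0.12, Ifih1 by 1.71 ± 0.14 and 1.34 ± 0.14, Sp100 by 1.70 ± 0.14 and 1.98 ± 0.14, and Xaf1 by 1.69 ± 0.14 and 1.98 ± 0.14. The 10 members that passed at neither week were Irf1, Dhx58, Zbp1, Ifit2, Mx1, Oas2, Oas3, Rsad2, Cmpk2 and Dtx3l. Macrophage markers were higher for 25 of 27 at each week, and endothelial markers were lower for 13 of 17 at 4 weeks and 12 at 2 weeks. Of the 22 fibroblast markers, 6 were higher and 9 lower at 4 weeks, and 11 higher and 8 lower at 2 weeks.

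When each array was left out in turn, 22 of 24 calls against CM at 4 weeks and 23 of 26 at 2 weeks held. Those lost, with their highest adjusted p, were Isg20 without 4-week iCM replicate 2 or 3 or CM replicate 1 or 3 (0.101) and Trim25 without 4-week iCM replicate 3 or CM replicate 3 (0.142) at 4 weeks, and Irf7 without 2-week iCM replicate 3 or CM replicate 2 (0.0637), Oas1a without 2-week iCM replicate 1 or 2 or CM replicate 1 or 2 or 3 (0.14) and Trim25 without 2-week iCM replicate 3 or CM replicate 3 (0.119) at 2 weeks. The mean of iCMs lay between those of CM and CF for 26 of the 36 members at 4 weeks and 21 at 2 weeks. It lay above both for 6 members at 4 weeks (Irf7, Eif2ak2, Mx2, Usp18, Tap1 and Xaf1) and for 11 at 2 weeks. Usp18 and Xaf1 were called above both CF and CM at both weeks.

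Over all 6 groups the highest mean of a member was in GFP- cells at 4 weeks for 23 genes and at 2 weeks for 9. It was in iCMs at 4 weeks for Usp18, in iCMs at 2 weeks for Eif2ak2 and Xaf1, and in CF for Isg20. The members whose mean was not lowest in CM were Ifit2, Rsad2 and Cmpk2, lowest in iCMs at 4 weeks, and Mx1, lowest in iCMs at 2 weeks. For these 4 genes the iCM arrays of that week overlapped the CM arrays. The order with GFP- cells above CF, CF above iCMs and iCMs above CM was seen in 25 members at 4 weeks and in 19 at 2 weeks.

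Between 4 and 2 weeks the share of members called in iCMs was near that of all genes. Of the 36 members 1 was higher at 4 weeks (2.78%) and 3 lower (8.33%), where 4.29% of all genes rose and 7.24% fell. The median difference was -0.19 over the 36 genes and -0.01 over all genes. Usp18 was higher (0.56 ± 0.16, adjusted p = 0.0301), and Psmb8 (-0.54 ± 0.12, adjusted p = 0.00655), Oasl2 (-0.51 ± 0.16, adjusted p = 0.047) and Ifi35 (-0.44 ± 0.09, adjusted p = 0.00467) were lower. The calls lost when each array was left out, with their highest adjusted p, were Usp18 without 4-week iCM replicate 2 or 3 or 2-week iCM replicate 1 or 2 or 3 (0.157) and Oasl2 without 4-week iCM replicate 1 or 2 or 3 or 2-week iCM replicate 1 or 3 (0.164). Without replicate 3 of both 4-week groups, Usp18 was called and the count of lower members was 10. Macrophage markers were lower at 4 weeks for 14 of 27 and higher for 0, and fibroblast markers were lower for 14 of 22.

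In GFP- cells 3 members were higher at 4 weeks than at 2 weeks and 2 lower, where 7.16% of all genes rose and 10.2% fell. The median difference was 0.14 over the 36 genes and -0.06 over all genes. Ifit3 (1.12 ± 0.25, adjusted p = 0.00354), Irf1 (0.53 ± 0.11, adjusted p = 0.00193) and Ifih1 (0.48 ± 0.14, adjusted p = 0.0176) were higher. Irf1, a transcription factor induced strongly by interferon gamma, measured 8.56, 8.58 and 8.23 in GFP- cells at 4 weeks, against 8.15, 7.76 and 7.87 in GFP- cells at 2 weeks. The weeks did not overlap. Tap1 (-0.35 ± 0.09, adjusted p = 0.00688) and Psmb9 (-0.39 ± 0.10, adjusted p = 0.0115) were lower. The calls lost when each array was left out, with their highest adjusted p, were Ifih1 without 4-week GFP- replicate 3 or 2-week GFP- replicate 1 (0.103) and Psmb9 without 2-week GFP- replicate 1 or 3 (0.0562). The count of higher members was 8 without 4-week GFP- replicate 2, 6 without 4-week GFP- replicate 1, and 2 without 4-week GFP- replicate 3 or 2-week GFP- replicate 1. Among marker lists, 0 macrophage markers were higher at 4 weeks and 4 lower, 8 of the 17 endothelial markers were higher and 1 lower, and 3 of the 22 fibroblast markers were higher and 5 lower. The median difference over the endothelial markers was 0.36. Their part in the result was not tested.

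Ifit3 was the 1 member whose change with time was called different between iCMs and GFP- cells by an interaction term, for which 1.86% of all genes were called positive and 2.08% negative. Ifit3 measured 8.28, 8.14 and 8.95 in iCMs at 4 weeks and 8.96, 8.84 and 8.98 in iCMs at 2 weeks. In GFP- cells it measured 9.99, 9.88 and 11.06 at 4 weeks and 9.25, 9.07 and 9.23 at 2 weeks. The 4-week GFP- arrays were above the 2-week GFP- arrays, while the iCM arrays overlapped between the weeks. The change from 2 to 4 weeks in iCMs minus that in GFP- cells was -1.59 ± 0.35 log2 (adjusted p = 0.012), and it was called without any 1 array and without replicate 3 of both 4-week groups. The median was -0.30 over the 36 members and 0.04 over all genes. The other Ifit genes were at -0.87 ± 0.28 for Ifit1 (adjusted p = 0.0981) and -0.82 ± 0.28 for Ifit2 (adjusted p = 0.129) and did not pass. Marker lists called negative included 6 of the 27 macrophage markers, 6 of the 17 endothelial markers, with 2 positive, and 6 of the 22 fibroblast markers, and 5 of the 18 cardiomyocyte markers were called positive. Their part in the result was not tested.

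Some members have close relatives whose RNA may share probes. A probe set that names both Oas1a and Oas1g averaged 7.38 ± 0.21 and 7.47 ± 0.10 in iCMs at 4 and 2 weeks, 9.61 ± 0.29 and 9.57 ± 0.09 in GFP- cells at 4 and 2 weeks, 6.70 ± 0.36 in CM and 8.56 ± 0.11 in CF (SD, n = 3). As for the Oas1a probe set, GFP- cells were highest, followed by CF, iCMs and CM. A probe set that names Sp100 with 4 other genes, none of them a member, averaged 7.46 ± 0.36 and 7.97 ± 0.03 in iCMs at 4 and 2 weeks, 9.44 ± 0.07 and 9.38 ± 0.12 in GFP- cells, 6.58 ± 0.31 in CM and 9.34 ± 0.09 in CF. It placed iCMs between CF and CM, as the Sp100 probe set did. Irf1 was the 1 member with a second probe set of its own, which averaged 7.59 ± 0.14 and 7.71 ± 0.15 in iCMs at 4 and 2 weeks, 8.07 ± 0.30 and 7.72 ± 0.25 in GFP- cells, 7.41 ± 0.08 in CM and 7.70 ± 0.08 in CF. Ifit3 and its near copy Ifit3b had separate probe sets, and cross-hybridisation between them was not tested.

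The rest of the pathway was followed in lists of ligands, receptors, sensors and further interferon-stimulated genes. Of 14 interferon genes measured, at most 4 were called in any comparison between groups. The 4 were 2 higher and 2 lower in CM than in CF, where 19.6% of all genes rose and 21.5% fell. The mean over the 14 genes was 6.72 to 7.01 log2 on the 18 arrays. Ifnb1, the interferon beta gene, was between 5.91 and 6.78 log2 on the 18 arrays, around the background limit of 6.16 log2. Values so near background cannot show a fall. The difference in Ifnb1 between iCMs at 4 weeks and CF was 0.11 ± 0.18 (adjusted p = 0.74). Of 15 receptor and signalling genes, 0 were higher and 9 lower in iCMs than in CF at 4 weeks. At 2 weeks 1 was higher and 8 lower. Of all genes 14.3% rose and 15.2% fell at 4 weeks, and 17.4% rose and 15.8% fell at 2 weeks. Against GFP- cells 0 of the 15 were higher and 12 lower at 4 weeks, where 17.2% of all genes rose and 17.1% fell. At 2 weeks 0 were higher and 10 lower, where 16.2% of all genes rose and 18.4% fell. Ifngr1, the ligand-binding chain for interferon gamma, measured 9.24, 9.68 and 9.50 in iCMs at 4 weeks, against 11.15, 11.23 and 11.34 in GFP- cells at 4 weeks and 10.61, 10.84 and 10.92 in CF. The iCM arrays were the lowest of these groups, and Ifngr1 differed by -1.76 ± 0.12 from GFP- cells and by -1.32 ± 0.12 from CF. The type I receptor chains in iCMs at 4 weeks differed from CF by -0.53 ± 0.10 for Ifnar2 (adjusted p = 0.000196), and Ifnar1 was at -0.09 ± 0.09 (adjusted p = 0.515).

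Of 15 genes of nucleic acid sensing and interferon induction, 0 were higher and 11 lower in iCMs than in CF at 4 weeks. Of all genes 14.3% rose and 15.2% fell. Against GFP- cells 0 of the 15 were higher and 12 lower at 4 weeks, where 17.2% of all genes rose and 17.1% fell. The largest differences from CF were in Tlr7, an endosomal receptor for RNA (-3.44 ± 0.17), Aim2, a DNA sensor (-2.25 ± 0.13), Sting1, the adaptor of cytosolic DNA sensing (-1.70 ± 0.08), and Irf8, a factor of the myeloid lineage (-1.55 ± 0.13). Of 52 further interferon-stimulated genes, 5 were higher (9.62%) and 20 lower (38.5%) in iCMs than in CF at 4 weeks, where 14.3% of all genes rose and 15.2% fell. At 2 weeks 10 were higher (19.2%) and 16 lower (30.8%), where 17.4% of all genes rose and 15.8% fell. Against GFP- cells 3 of the 52 were higher and 33 lower at 4 weeks, where 17.2% of all genes rose and 17.1% fell. At 2 weeks 5 were higher and 26 lower, where 16.2% of all genes rose and 18.4% fell. GFP- cells had 17 of the 52 higher than CF and 0 lower at 4 weeks, where 5.79% of all genes rose and 5.70% fell. At 2 weeks 17 were higher and 3 lower, where 13.8% of all genes rose and 8.93% fell. CM had 1 higher and 38 lower than CF, where 19.6% of all genes rose and 21.5% fell. The largest differences of iCMs from CF at 4 weeks were in Ifi27l2a (-2.56 ± 0.12), Trim30a (-2.52 ± 0.18), Slfn8 (-2.19 ± 0.16) and Iigp1 (2.00 ± 0.17).

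Iigp1, a GTPase that acts on the vacuoles of intracellular pathogens, was higher in iCMs, unlike the other genes just named. It measured 9.64, 9.90 and 9.95 log2 in iCMs at 4 weeks and 9.67, 8.87 and 9.64 in iCMs at 2 weeks. It measured 8.42, 8.10 and 8.10 in GFP- cells at 4 weeks and 7.33, 7.03 and 7.19 in GFP- cells at 2 weeks, against 7.24, 7.71 and 7.49 in CM and 7.90, 7.81 and 7.79 in CF. The 6 iCM arrays were above the other 12. Iigp1 in iCMs was 2.00 ± 0.17 log2 above CF at 4 weeks (adjusted p = 9.83e-09) and 2.21 ± 0.17 above GFP- cells at 2 weeks (adjusted p = 2.17e-09). The differences were smaller in the other week of each comparison, 1.56 above CF at 2 weeks and 1.62 above GFP- cells at 4 weeks.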

How the data were processed

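Expression was measured on 18 arrays, 3 in each of 6 groups. The authors deposited 1 log2 value per probe set and array, made by RMA (background correction, normalization across arrays, summary over probes), per the submitters' processing notes. Its version is not given in the sources used here. Of its 28682 probe sets, 21755 carry the name of 1 gene, 1592 of several and 5335 of none, which left 19912 genes. Array medians were 7.32 to 7.44, and arrays of 1 group correlated at 0.99 to 0.996. Precision is limited by the 3 arrays per group, and a value near background cannot show a fall.

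A linear model per gene with group as its term covered all 18 arrays (limma 3.58.1, lmFit and eBayes, in R 4.3.3). From it 12 comparisons were drawn, with two-sided p-values adjusted by Benjamini-Hochberg over all genes within each and a threshold of 0.05. Errors of differences are SE and errors of group means SD (n = 3). The script was tested on simulated data. A group mean under 6.16 log2 counted as not above background, which among the members touched Cmpk2. Levels were not compared between probe sets.

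The members and the other lists were chosen with earlier results of these data known. Any member may be named, and of the other pathway lists up to 4 called genes per comparison with the largest differences and a set of anchor genes. Alternatives were quantile and cyclic loess normalization, array weights, an intensity trend, only the groups compared, leaving out dim genes, the mean of probe sets, the replicate number as a block, and leaving out each array. Leaving out replicate 3 of both 4-week groups was chosen after seeing the data. Promoter sequences came from RefSeq (GRCm38.p6), and 9 members had no window in the table used.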

Additional observations from a re-analysis of the deposited data

Results flagged for a closer look

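The change from 2 to 4 weeks in iCMs minus the change in GFP- cells was tested with an interaction term in limma. In the interferon lists 4 genes passed, all negative, where 1.86% of all genes were called positive and 2.08% negative. They were 1 of the 36 members (2.78%) and 3 of the 52 further interferon-stimulated genes (5.77%). None of the 14 ligand, 15 receptor and signalling or 15 sensing genes passed. Ifit3 was at -1.59 ± 0.35 log2 (SE, adjusted p = 0.012). Of the further interferon-stimulated genes, Ddx60, a helicase, was at -0.97 ± 0.23 (adjusted p = 0.0215), Ifi203, of the HIN family of DNA-binding proteins, at -0.74 ± 0.19 (adjusted p = 0.0366), and Sp140, a relative of Sp100, at -0.55 ± 0.15 (adjusted p = 0.0379). Ddx60 measured 7.63, 7.60 and 8.15 in iCMs at 4 weeks and 7.45, 7.3 and 7.62 in iCMs at 2 weeks. In GFP- cells Ddx60 measured 9.72, 9.67 and 10.15 at 4 weeks and 8.53, 8.67 and 8.43 at 2 weeks, with the weeks apart in GFP- cells and not in iCMs. Ifi203 measured 8.03, 8.30 and 8.60 in iCMs at 4 weeks and 8.13, 8.15 and 8.38 in iCMs at 2 weeks. In GFP- cells Ifi203 measured 11.07, 10.96 and 11.28 at 4 weeks and 10.31, 10.20 and 10.32 at 2 weeks. For Ifit3, Ddx60 and Ifi203 replicate 3 was the highest array of both 4-week groups. Negative values also passed for 6 of the 27 macrophage markers, 6 of the 17 endothelial markers and 6 of the 22 fibroblast markers, positive values for 5 of the 18 cardiomyocyte markers, and their part in these results was not tested.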

How the results depend on the processing

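No member's difference changed sign past the threshold under any alternative run. Counts of called members within 1.5 times those reported are not repeated. With array weights there were 4 members higher in iCMs than in CF at 4 weeks, 3 higher in iCMs than in GFP- cells at 4 weeks, and 23 higher and 2 lower in GFP- cells than in CF at 2 weeks. Array weights also gave 2 higher and 6 lower in iCMs at 4 against 2 weeks, 5 higher in GFP- cells at 4 against 2 weeks, and 1 positive and 4 negative for the interaction. For iCMs at 4 against 2 weeks, quantile normalization gave 2 higher. For GFP- cells at 4 against 2 weeks, cyclic loess normalization and leaving out dim genes each gave 8 higher. Fitting only the groups compared gave 2 lower in GFP- cells than in CF at 2 weeks. The interaction had 2 negative members with cyclic loess normalization, an intensity trend or only the groups compared, and 3 without dim genes. Without replicate 3 of both 4-week groups there were 10 lower in iCMs at 4 against 2 weeks, 10 higher in GFP- cells than in CF at 4 weeks, and 1 positive and 3 negative for the interaction. The causes were not tested.

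With the replicate number as a block, 2 members were higher in iCMs at 4 against 2 weeks, 8 were higher in GFP- cells at 4 against 2 weeks, and 2 were negative for the interaction. Of 432 tests (36 members in 12 comparisons, called or not), 424 kept their side of the threshold under the block. Over all genes, deviations of arrays with the same number correlated at -0.301 to 0.454 between groups, and those of arrays with other numbers at -0.512 to 0.413. The labels do not say what a replicate number marks, so the numbers were not taken to pair the arrays.

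Leaving out 1 array at a time gave 1 to 2 higher and 16 to 19 lower for iCMs against CF at 4 weeks, and 5 to 6 and 15 to 18 at 2 weeks. For iCMs against GFP- cells it gave 1 to 2 higher and 27 to 30 lower at 4 weeks, and 2 to 3 and 21 to 23 at 2 weeks. For GFP- cells against CF it gave 10 to 21 higher and 0 to 1 lower at 4 weeks, and 11 to 14 and 0 to 1 at 2 weeks. For 4 against 2 weeks it gave 0 to 1 higher and 2 to 4 lower in iCMs and 2 to 8 higher and 1 to 3 lower in GFP- cells. It gave 0 higher and 30 to 32 lower for CM against CF, 22 to 25 higher and 0 to 1 lower for iCMs against CM at 4 weeks, 24 to 25 higher and 0 lower at 2 weeks, and 0 to 1 positive and 1 to 3 negative for the interaction.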
